A study of Mus musculus with 2 samples.

Results

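Endothelial cells, the cells that line blood and lymphatic vessels, were examined in healing mouse skin wounds by single-cell RNA sequencing. The cells were chosen by their measured UMI counts. A cell was a member when Pecam1, Cdh5, Kdr, Plvap and Emcn together had at least 5 unique molecular identifiers (UMIs, each a tagged RNA molecule) from at least 2 of these 5 genes, with fewer than 3 Rgs5 UMIs, fewer than 5 Lyz2 UMIs, less than 0.5% of UMIs from Krt5 and Krt14, and less than 2% from Col1a1 and Col3a1. Of the 15514 cells kept in all (at least 500 genes detected and at most 6% mitochondrial UMIs), 138 were endothelial cells by this rule. They came as 74 of 8326 kept cells in one library and 64 of 7188 in the other.

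The study compared wounds with and without depletion of macrophages that carry CD206, the mannose receptor encoded by Mrc1. Each of the 2 libraries came from 3 pooled mice, taken on day 5 after wounding with a 10 mm punch of wound bed and surrounding back skin, and live cells were sorted by dye exclusion with no selection for endothelial cells. Both groups are labelled as C57BL/6 mice aged 7 to 9 weeks that carry Mrc1-DTR, a transgene that places the diphtheria toxin receptor under the Mrc1 promoter, so the receptor is expected in any cell type that uses that promoter. One group is labelled as given PBS (the PBS library) and the other as given diphtheria toxin (the DTX library). The study's methods instead describe wild-type control mice that also received the toxin, and state male mice throughout and technical but no biological replicates. The number of cells that the study's text assigns to the depleted mice is the number of barcodes in the library labelled PBS, and the reverse holds for its control mice. By the cell class rules used here, the DTX library held 4573 macrophages, 366 fibroblasts and 125 keratinocytes, and the PBS library 1845, 2298 and 1270. The study's text describes its depleted wounds as richer in immune cells and poorer in fibroblasts and epithelial cells, which is the makeup of the library labelled DTX. So the barcode numbers went against the labels and the cell makeup went with them. Mrc1 itself did not tell the libraries apart, at 394 and 417 CPM (counts per 1000000 UMIs) in the PBS and DTX macrophages and detected in 1328 and 3169 of them. The share of macrophages with Mrc1 RNA was thus 72.0% in the PBS and 69.3% in the DTX library. Such a share does not measure the number of cells per wound, so a loss of these cells cannot be read from it. The study reports fewer CD206-positive cells in its depleted wounds by flow cytometry and by immunostaining, and a smaller share of C1qa-positive macrophages. The labels were followed here, and every direction given below depends on them. Xist, the RNA made from the inactive X chromosome of females, had 0 UMIs in the endothelial cells of both libraries, and the Y-linked gene Ddx3y had 140 UMIs in the PBS and 136 in the DTX cells, so the libraries matched in sex.

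Endothelial cells differ along the vessel tree. Arterial cells carry Notch ligands and gap junction genes, capillary cells take up lipids through Gpihbp1 and Cd36, and venous cells carry the selectins and adhesion molecules by which blood leukocytes are caught and enter the tissue. In a wound, new vessels sprout behind tip cells that are guided by VEGF, restrained by Notch signalling through Dll4, and known for Apln and Esm1, while lymphatic vessels are set apart by the transcription factor Prox1.

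The sequences upstream of 5 genes are shown because the first 4 were higher in the DTX cells and are genes of the venous list, and the fifth, Apln, a gene of the tip list, was lower. Each is the 250 bases before the start of the gene in RefSeq, GRCm38.p6, written 5′ to 3′ on the gene's strand. Capitals mark AGGAAG (a core motif of ETS factors, which include the endothelial factor ERG) and GGNNTTTCC (an NF-kB motif) on either strand, which did not overlap in these windows.
Selp (chr1:164115014-164115263, plus strand): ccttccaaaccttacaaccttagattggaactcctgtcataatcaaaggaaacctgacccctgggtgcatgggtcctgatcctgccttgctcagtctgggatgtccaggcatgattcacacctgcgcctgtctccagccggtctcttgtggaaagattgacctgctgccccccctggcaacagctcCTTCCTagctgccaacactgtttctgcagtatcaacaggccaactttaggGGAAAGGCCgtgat
Sele (chr1:164047984-164048233, plus strand): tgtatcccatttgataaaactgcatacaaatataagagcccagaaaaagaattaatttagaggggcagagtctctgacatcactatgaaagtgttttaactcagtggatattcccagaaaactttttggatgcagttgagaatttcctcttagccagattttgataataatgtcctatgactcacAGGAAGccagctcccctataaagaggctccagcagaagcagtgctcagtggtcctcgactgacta
Ackr1 (chr1:173333504-173333753, minus strand): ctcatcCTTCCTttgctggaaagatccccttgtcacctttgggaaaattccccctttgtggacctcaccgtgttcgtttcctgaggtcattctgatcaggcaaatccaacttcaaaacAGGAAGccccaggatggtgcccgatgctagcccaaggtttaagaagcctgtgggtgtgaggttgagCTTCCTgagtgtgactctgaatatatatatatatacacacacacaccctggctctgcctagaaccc
Lrg1 (chr17:56121947-56122196, minus strand): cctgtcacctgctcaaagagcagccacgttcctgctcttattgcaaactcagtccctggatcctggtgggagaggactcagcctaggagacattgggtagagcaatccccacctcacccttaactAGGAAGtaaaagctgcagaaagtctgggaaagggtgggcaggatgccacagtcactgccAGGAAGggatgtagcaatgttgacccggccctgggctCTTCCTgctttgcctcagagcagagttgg
Apln (chrX:48034854-48035103, minus strand): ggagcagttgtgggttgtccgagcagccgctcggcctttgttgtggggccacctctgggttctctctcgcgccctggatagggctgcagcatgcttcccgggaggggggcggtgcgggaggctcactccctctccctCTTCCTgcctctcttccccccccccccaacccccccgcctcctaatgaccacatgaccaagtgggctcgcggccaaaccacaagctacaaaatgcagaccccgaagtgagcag
The ETS letters stood at 1 place before Selp, Sele and Apln and at 3 places before Ackr1 and Lrg1, against at least 1 match in 29.2% of all 27025 such windows. The NF-kB letters stood at 1 place before Selp and in none of the other windows, against 4.84% of all windows. A match describes letters and is not a binding site, and no match says only that these letters are not in the window.

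The members carried the RNA that the label asks for. Cdh5, the cadherin of endothelial junctions, was detected in 97.3% and 98.4% of the PBS and DTX cells, Pecam1 in 95.9% and 96.9%, Plvap, a protein of endothelial pores, in 93.2% and 92.2%, Emcn in 93.2% and 95.3%, and Kdr, the main VEGF receptor, in 78.4% and 75%. These genes chose the cells, so their shares describe the rule. Markers that the rule did not use included Egfl7, an endothelial secreted protein, in 90.5% and 89.1% of cells, Tie1, a receptor of the angiopoietin system, in 85.1% and 85.9%, Esam in 86.5% and 85.9%, and Cldn5, a tight junction gene, in 63.5% and 48.4%. Cd93 was in 82.4% and 82.8% and Ctla2a in 93.2% and 96.9% of the members. In macrophages of the same libraries, which should lack Tie1, Egfl7 and Cldn5, Tie1 was detected in 0.271% and 0.153%, Egfl7 in 0.921% and 0.743% and Cldn5 in 0.217% and 0.306% of cells. Cd93 and Ctla2a set the members apart less clearly. Cd93 was detected in 33.5% and 53.5% of macrophages, and Ctla2a in 12.8% and 7.54% of macrophages and in 49.7% and 25.7% of fibroblasts. In mural cells Esam was also common, in 77.6% and 76.9%, so it does not set the members apart from them, while Egfl7 was detected in 10.2% and 8.65% and Tie1 in 0% and 1.92%, and Cldn5 in 0 of 49 PBS and 0 of 104 DTX mural cells, which allows shares of up to 7.25% and 3.48% of cells with a UMI (exact Clopper-Pearson). The median depth was 12482 UMIs per PBS and 12620.5 per DTX endothelial cell, and 5776 and 7286 per macrophage. The median share of mitochondrial UMIs was 3.75% in the PBS and 4.89% in the DTX endothelial cells. Ptprc, the CD45 gene of leukocytes, was detected in 4.05% and 4.69% of the endothelial cells and in 78.3% and 87.3% of the macrophages. The endothelial cells gave 1050040 UMIs in the PBS and 958234 in the DTX library in all.

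Cells close to the threshold were few. The 5 rule genes together had a median of 45 UMIs (range 5 to 176) in the PBS and 54.5 (5 to 185) in the DTX members. Members with 5 to 9 rule UMIs numbered 7 in the PBS and 5 in the DTX library, and Egfl7 was detected in 4 and 3 of them. Just outside, 12 PBS and 20 DTX cells had 3 to 4 rule UMIs, of which 1 and 0 had Egfl7 and 5 and 13 had Ptprc. The gates against other cell types left out cells that met the positive rule, by Lyz2 in 3 PBS and 11 DTX cells and by collagens in 7 and 0. No barcode was shared between the members of the 2 libraries, while 20 barcodes were shared among all kept cells.

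Endothelial cells made up nearly the same share of both libraries. They were 0.889% of kept cells in the PBS library (exact Clopper-Pearson 95% interval 0.699 to 1.11) and 0.890% in the DTX library (0.686 to 1.14). The study's limit of 2000 genes per cell left only 8 PBS and 5 DTX endothelial cells. Their shares were lower in both libraries, and lower in the DTX than in the PBS library. Set against the mural cells, the pericytes and smooth muscle cells that wrap vessels (49 and 104 cells), there were 1.51 endothelial cells per mural cell in the PBS library (1.04 to 2.21) and 0.615 in the DTX library (0.444 to 0.848). With cells of up to 10% mitochondrial UMIs these ratios were 0.913 and 0.474. Against fibroblasts the ratio was 0.0322 (0.0252 to 0.0406) in the PBS and 0.175 (0.132 to 0.229) in the DTX library. Under the main limits the share among kept cells was thus alike while the ratio to single other classes was not. The number of endothelial cells per wound was not measured by a share. With 1 library for each treatment no difference can be tested, and all intervals here cover counting error only and not the spread between mice.

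The endothelial cells fell into 6 clusters when the rule genes were left out of the clustering, of which 4 could be named from vessel markers. Cluster 0 (13 PBS and 24 DTX cells) was venous-like, with 4 of 11 genes of the venous list raised, Ackr1, Sele, Selp and Lrg1. Cd14, Vcan, Ehd3, Nt5e, Tll1 and Car4, the last of the capillary list, were among its leading genes. The venous genes Nr2f2, Flrt2, Vcam1 and Csf2rb were raised in other clusters and not in this one, so the name rests on few genes. In cluster 0 Ackr1, an atypical chemokine receptor of venules, was at 1690.4 CPM against 91.0 in the other endothelial cells. Cluster 1 (6 and 6 cells) was lymphatic-like, with all 10 genes of the lymphatic list raised. It was led by Ccl21a, a chemokine of lymphatic vessels, Mmrn1 and Nts. Of its 12 cells, 3 had a UMI of Ccl21a, 12 of Mmrn1 and 11 of Nts. Cluster 2 (12 and 11 cells) was capillary-like, with 6 of 11 capillary genes raised, among them Gpihbp1 and Rgcc, although Edn1 and Sox17 of the arterial list also stood among its leading genes. Cluster 5 (18 and 14 cells) was arterial-like, with 6 of 12 arterial genes raised, led by Gja4, a gap junction gene, and Stmn2, and it also held Hbegf, Cx3cl1 and Il6. Clusters 3 and 4 were left without a name. Cluster 3 (6 and 2 cells) had all 10 genes of the fibroblast list raised and was led by Col1a2 and Dcn, and cluster 4 (19 and 7 cells) had 19 of 20 cell cycle genes, 7 of 12 tip genes and all 12 keratinocyte genes raised, with Lgals7 and Krt16 leading and Birc5 and Apln close behind. Their cells also had more UMIs, with medians of 20376 and 19438 against 10195 to 12383 in the named clusters. The clusters describe the cells and were not tested, and their sizes were not compared between the libraries because genes that define them, Selp and Lrg1 for example, differed between the libraries.

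**Figure D1:**
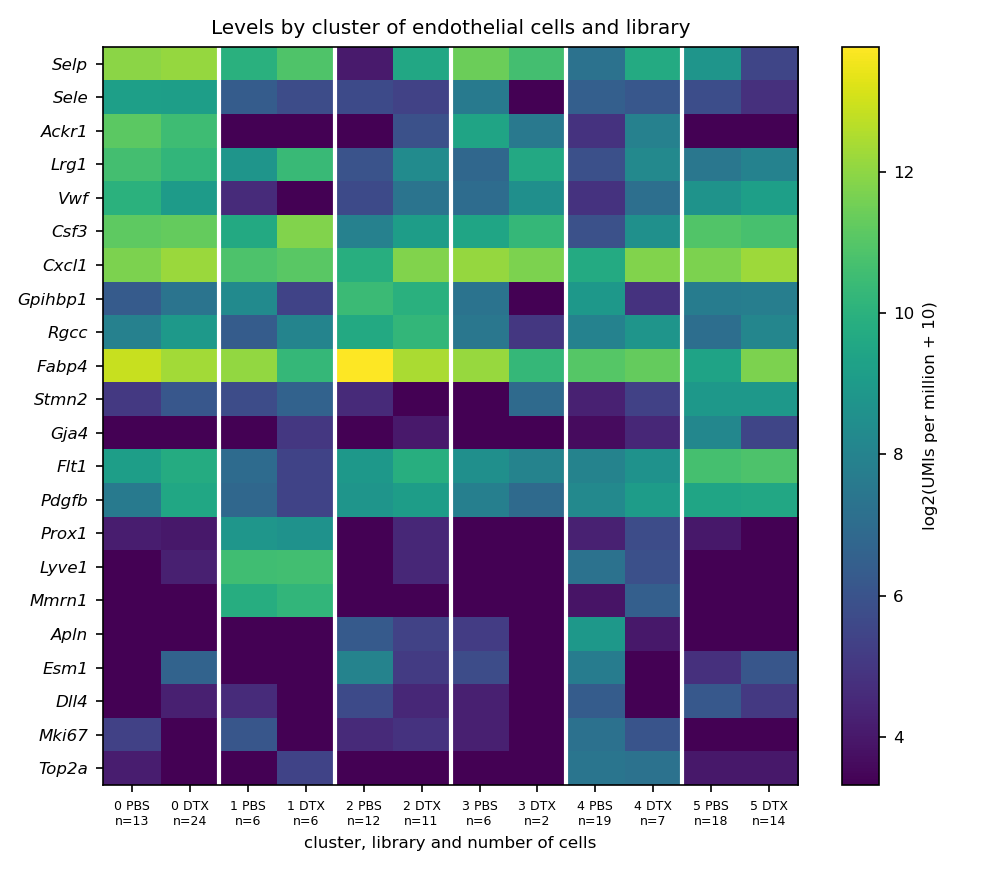
Level of 22 genes in each of the 6 clusters of endothelial cells and each library, as log2 of CPM plus 10 (colour), with the number of cells under each column. Selp, Sele, Ackr1 and Lrg1 are bright in cluster 0, Gpihbp1 in cluster 2, Stmn2 in cluster 5, and Prox1, Lyve1 and Mmrn1 in cluster 1, while Top2a is brightest in cluster 4 in both libraries and Apln in cluster 4 in the PBS library, but in cluster 2 in the DTX library.

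A second grouping, in which a cell joined each class of which it had at least 3 detected list genes, gave classes that overlapped, with 67 of 74 PBS and 56 of 64 DTX cells in several classes. With every cell thinned to 2000 UMIs (72 and 62 cells left), the venous class held 29.2% of the PBS cells (19.0 to 41.1) and 50% of the DTX cells (37.0 to 63.0). The capillary class held 37.5% of the PBS cells (26.4 to 49.7) and 37.1% of the DTX cells (25.2 to 50.3), the arterial class 19.4% of the PBS cells (11.1 to 30.5) and 14.5% of the DTX cells (6.86 to 25.8), the tip class 12.5% of the PBS cells (5.88 to 22.4) and 12.9% of the DTX cells (5.74 to 23.9) and the lymphatic class 12.5% of the PBS cells (5.88 to 22.4) and 11.3% of the DTX cells (4.66 to 21.9). Without thinning the venous class held 75.7% and 81.2% of cells, and in each of the 5 classes the intervals of the 2 libraries overlapped, thinned or not. Most tested genes of the venous list were themselves higher in the DTX cells, so the venous share counts the same RNA as the levels below.

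Between the libraries, most genes of the endothelial cells were at like levels. Of 5277 genes with at least 50 UMIs, 91 (1.72%) were at least 2-fold higher and 147 (2.79%) at least 2-fold lower in the DTX cells, 4.51% in either direction, on the scale of the log2 ratio of DTX over PBS after adding 1 CPM. The median ratio over all genes was -0.01, with 48.4% of genes above 0 and 51.6% below, and the counts of each list below are read against these shares. No difference between a list and all genes was tested. The list of 25 pan-endothelial genes, which holds no rule gene, stayed close to that median, with a median of 0.02 over 24 tested, 12 higher, 12 lower and none past 2-fold. Genes that stood highest over the 4 comparison classes in both libraries, a description since the same cells were chosen by endothelial genes, included Robo4, a guidance receptor of endothelial cells (118 and 116 CPM), Ptprb, the endothelial phosphatase (289 and 262 CPM), Myct1 (306 and 339 CPM), Adgrl4 (197 and 189 CPM) and Cyyr1 (207 and 332 CPM). Of the 15 genes ranked this way Selp and Ccl21a were past 2-fold, Ccl21a at -1.18, though at 0.41 as a mean over cells. Some of the differences came from single cells, since 1 cell held most of the UMIs in 13 of the 91 and 37 of the 147 genes. In what follows each ratio is this log2 ratio, followed by its 95% counting interval where one is given.

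The 10 genes that ranked highest in the DTX cells by the near bound of the interval were Mmp9, Mmp13, Ehd3, Car4, Nt5e, Glycam1, Cd14, Acta2, Lcn2 and Acp5. Ehd3, a protein of membrane trafficking, had 26 UMIs in 14 of 74 PBS cells and 175 in 26 of 64 DTX cells (log2 ratio 2.83, 2.28 to 3.54). Nt5e, which encodes CD73, the enzyme that makes adenosine, had 68 UMIs in 23 of 74 PBS cells and 282 in 29 of 64 DTX cells (log2 ratio 2.17, 1.80 to 2.59). Car4, a carbonic anhydrase on the surface of capillary cells, had 13 UMIs in 6 of 74 PBS cells and 76 in 15 of 64 DTX cells (log2 ratio 2.59, 1.82 to 3.65). All 3 also stood among the leading genes of the venous-like cluster, and for Car4 1 PBS cell held 61.5% of the PBS UMIs. Cd14, the co-receptor for lipopolysaccharide, had 48 UMIs in 19 of 74 PBS cells and 178 in 23 of 64 DTX cells (log2 ratio 2.00, 1.56 to 2.51), and Lcn2, an iron-scavenging protein, had 160 UMIs in 16 of 74 PBS cells and 456 in 22 of 64 DTX cells (log2 ratio 1.64, 1.38 to 1.91). Mmp13, a collagenase, was in only 4 PBS and 6 DTX cells (log2 ratio 3.89, 3.28 to 4.75). For Mmp9, Acta2 and Acp5 a single DTX cell held 98.9%, 93.7% and 94.4% of the UMIs, and for Glycam1 82%, so these describe 1 cell each.

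The 10 genes that ranked lowest were Sprr1b, Krt1, Gm47283, 2310046K23Rik, Krt16, Apod, Tnfaip6, Apln, Saa3 and Krt10. Sprr1b, Krt1, Krt10 and Krt16 are genes of keratinocytes, and the highest PBS cell held 94.1%, 61.5%, 65.3% and 79.1% of their PBS UMIs. Sprr1b and Krt1 had 0 UMIs in the DTX cells, so against a limit of 3 UMIs over the library they were at least 46.2-fold and 33.2-fold lower. Gm47283, on the Y chromosome (chrY:90784738-90816464 in mm10, plus strand), had 181 UMIs in 57 of 74 PBS cells and 2 in 2 of 64 DTX cells (log2 ratio -5.81, -9.42 to -4.49). It was lower in the DTX library in every class compared, with ratios of -5.47 in macrophages, -4.41 in fibroblasts, -5.52 in keratinocytes and -4.98 in mural cells. Mid1, on the X chromosome and outside the rule for named genes, chosen after its values were seen, had 34 UMIs in 24 of 74 PBS cells and 3 in 3 of 64 DTX cells. Tnfaip6, an inflammation-induced hyaluronan-binding protein, had 334 UMIs in 28 of 74 PBS cells and 12 in 6 of 64 DTX cells (log2 ratio -4.56, -5.63 to -3.84). Saa3, an acute phase protein, had 225 UMIs in 13 of 74 PBS cells and 8 in 6 of 64 DTX cells (log2 ratio -4.53, -5.91 to -3.68), but with cells of up to 10% mitochondrial UMIs its ratio was 1.89.

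Most tested genes of the leukocyte adhesion list, by which vessel walls catch leukocytes, were higher in the DTX cells, few of them past 2-fold. Of the leukocyte adhesion list, 9 of 10 genes tested were higher and 1 lower in the DTX library, with a median of 0.52, where 48.4% of all genes were higher. The median was 0.17 after thinning every cell to 2000 UMIs and 0.22 as a mean over cells. The 2 past 2-fold were Selp and Glycam1, the latter mostly from 1 cell. The venous list, which shares Selp, Sele, Vcam1, Ackr1 and Madcam1 with it, had 7 of 9 tested genes higher, Selp and Lrg1 past 2-fold, with a median of 0.46, which was 0.21 as a mean over cells, 0.20 without the highest cell of each gene, 0.27 with stricter gates against other cell types and 0.30 with cells of up to 10% mitochondrial UMIs. Selp, the P-selectin on which leukocytes begin to roll, was at 972 CPM in the PBS library and 2064 CPM in the DTX library (log2 ratio 1.09, 0.98 to 1.20). It was detected in 41.9% and 62.5% of the PBS and DTX cells, and in 27.8% and 54.8% when thinned to 2000 UMIs. The background was 0.114% and 0.286% of thinned macrophages. At equal depth Selp RNA was thus found in a larger share of the DTX cells, although in both libraries cells without a UMI and cells with high levels stood side by side.

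**Figure D2:**
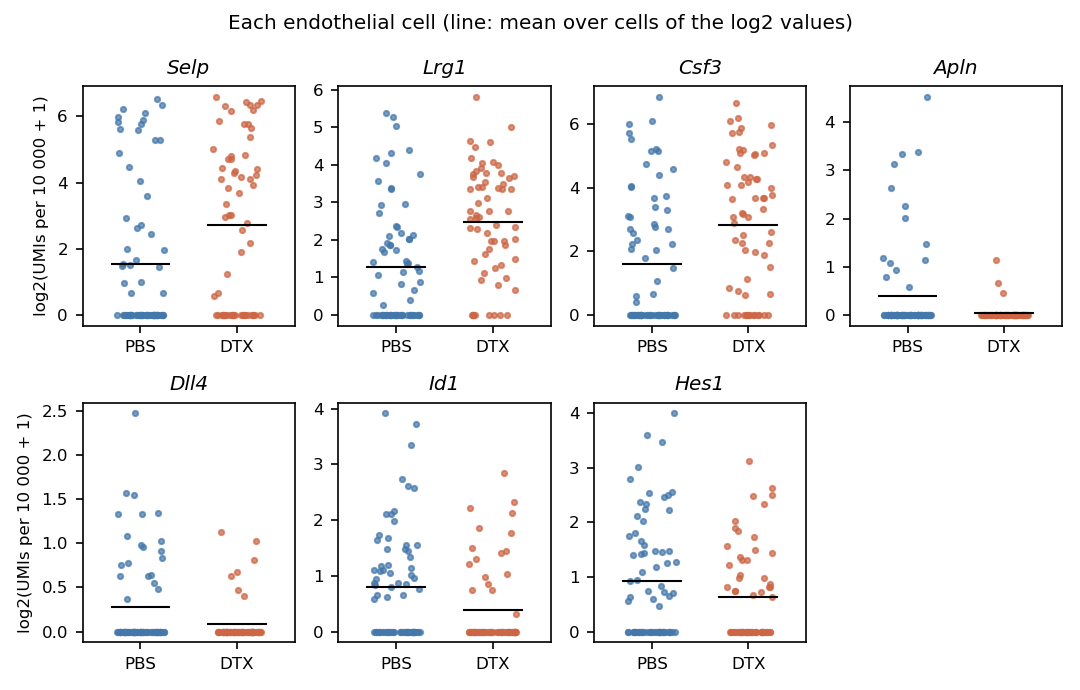
Level of 7 genes in every endothelial cell, as log2 of UMIs per 10000 plus 1, for the 74 PBS and 64 DTX cells (points, spread sideways for view), with the mean of the log2 values over cells (line). The cells of the libraries overlap for every gene, and the line is higher in DTX for Selp, Lrg1 and Csf3 and lower for Apln, Dll4, Id1 and Hes1.

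Lrg1, a secreted glycoprotein that acts on TGF-beta signalling in vessels, was at 289 CPM in the PBS library and 713 CPM in the DTX library (log2 ratio 1.30, 1.11 to 1.50), and had a UMI in 41 of 74 and 55 of 64 cells. Ackr1 was at 359 and 562 CPM (log2 ratio 0.65, 0.46 to 0.84) and Sele, the E-selectin, at 142 and 220.2 CPM (log2 ratio 0.63, 0.32 to 0.95). Icam1 and Vcam1, the ligands on which leukocytes arrest, were at 976 and 1248 CPM (log2 ratio 0.35, 0.23 to 0.48) and 589 and 809.8 CPM (log2 ratio 0.46, 0.31 to 0.62). The order of size ran from Lrg1 and Selp, past 2-fold, to Icam1, the smallest of these 6.

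The levels within clusters are a description, since Selp, Sele, Ackr1 and Lrg1 themselves set the venous-like cluster apart and several clusters hold few cells. In the venous-like cells Selp was at 3899.9 and 4464 CPM, in the lymphatic-like cells at 983 and 1884 CPM, in cluster 4 at 142 and 831 CPM and in the capillary-like cells at 6.8 and 758 CPM, where it had 1 UMI in the PBS and 121 UMIs in 6 of 11 DTX cells. It was lower in the DTX library in cluster 3, at 2741 and 1595 CPM in 6 PBS and 2 DTX cells, and in the arterial-like cells, at 431 and 35.3 CPM with the UMIs of 1 PBS and 1 DTX cell. Selp was thus higher in 4 clusters and lower in 2. In the venous-like cells its counting intervals overlapped, at 3566 to 4256 CPM in the PBS and 4239 to 4698 CPM in the DTX library. The venous-like cells held 502 of 1021 PBS and 1472 of 1978 DTX UMIs of Selp. Lrg1 was at 1593 and 1177 CPM in the venous-like, 425 and 1326 CPM in the lymphatic-like and 54.4 and 319.6 CPM in the capillary-like cells. In the venous-like cells Sele was at 583 CPM (458 to 730.4) in the PBS and 573 CPM (494 to 661) in the DTX library, with overlapping counting intervals, and Ackr1 at 2253 and 1471 CPM. The higher level of Sele over all DTX cells was found within none of the 6 clusters, since it was lower in the DTX library in each, with at most 33 UMIs per library in the 5 clusters other than the venous-like. These cells held 75 of 149 PBS and 189 of 211 DTX UMIs of Sele, and 290 of 377 and 485 of 539 of Ackr1.

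**Figure D3:**
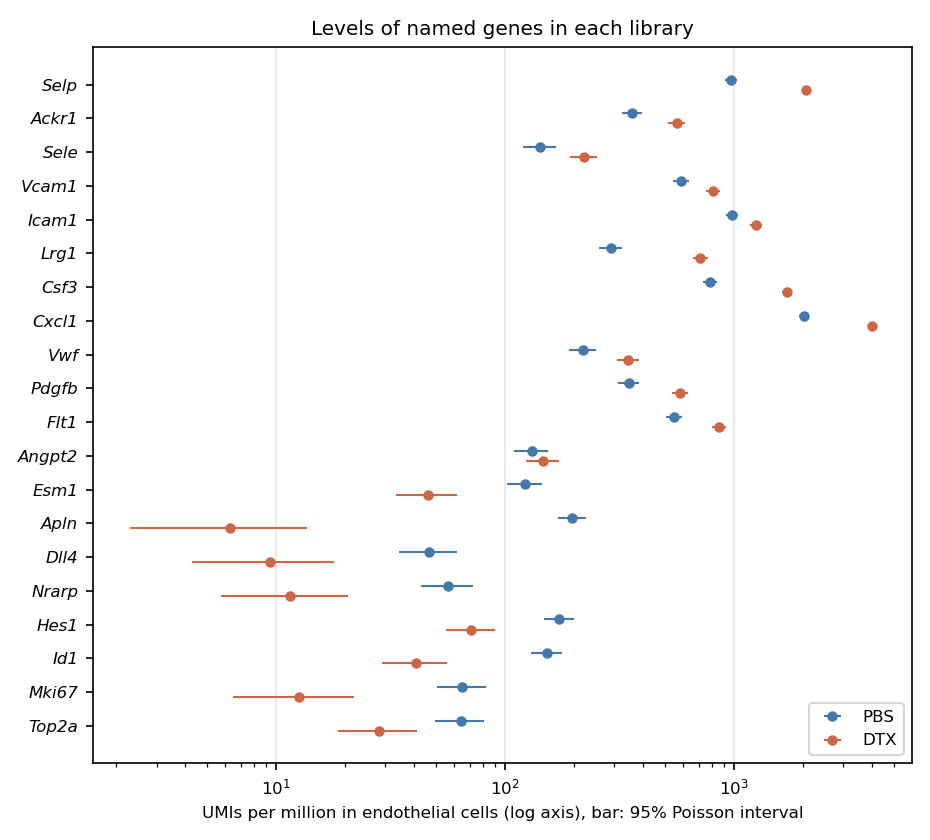
Level of 20 genes in the endothelial cells of each library, in CPM on a log axis, with 95% Poisson intervals (bars, counting error only). From Selp to Flt1 the DTX points lie to the right, from Esm1 to Top2a to the left, and for Angpt2 the intervals overlap.

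Secreted factors of inflammation divided. Of the chemokine and cytokine list, 6 of 14 genes tested were higher and 8 lower in the DTX library, with a median of -0.06 and 2 past 2-fold each way. The sign of this median depended on the cells used, since it was 0.37 without the 8 PBS and 2 DTX cells that had over 1% of UMIs from lists of other cell types, 0.09 without the highest cell of each gene and 0.08 after thinning. Csf3, the growth factor of neutrophils, was at 784 CPM in the PBS library and 1703 CPM in the DTX library (log2 ratio 1.12, 1.00 to 1.24), with a UMI in 35 of 74 and 49 of 64 cells. Cxcl1, which draws neutrophils, was at 2011 CPM in the PBS library and 3984 CPM in the DTX library (log2 ratio 0.99, 0.91 to 1.06), and Cxcl2 at 486 and 714 CPM (log2 ratio 0.55, 0.39 to 0.72). In the venous-like cells Csf3 was at 2315 and 2484 CPM and Cxcl1 at 3341 and 4622 CPM, in the capillary-like cells at 231 and 545 CPM and 931 and 3478 CPM, and in the arterial-like cells at 1919 and 1705 CPM and 3304 and 4834 CPM, so Csf3 was not higher in the last. Of the 8 genes of the list that were lower, Ccl2, the main monocyte chemokine, was at 3370.3 and 2833 CPM (log2 ratio -0.25, -0.32 to -0.18) and Ccl7 at 694 and 541 CPM (log2 ratio -0.36, -0.53 to -0.20). Csf1, the macrophage growth factor, was at 273 and 158 CPM (log2 ratio -0.79, -1.09 to -0.51), and Cxcl12 at 156 and 81.4 CPM (log2 ratio -0.93, -1.35 to -0.54). None of these 4 was past 2-fold. Il6 was at 229 and 228 CPM (-0.01), and Cxcl9, Il33 and Il1b, which passed 2-fold, had most of their UMIs in 1 cell (54.5% in the DTX library, and 75% and 76.6% in the PBS library). The NF-kB feedback list, which holds inhibitors and subunits of NF-kB among other genes, had 5 of 10 higher, with a median of 0.07 and none past 2-fold.

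More tested genes of clotting and of its control were higher than lower, nearly all within 2-fold. Of the coagulation list, 9 of 12 genes tested were higher and 3 lower in the DTX library, 11 of the 12 within 2-fold, with a median of 0.43, where 48.4% of all genes were higher. The median was 0.11 after thinning, 0.20 as a mean over cells and 0.27 without the highest cell of each gene. Vwf, the factor that binds platelets, was at 218 and 345 CPM (log2 ratio 0.66, 0.42 to 0.91), though in the venous-like cells it was at 1009.9 CPM (844 to 1199) in the PBS and 519 CPM (444 to 602) in the DTX library. Tfpi, which inhibits tissue factor, was at 42.9 and 79.3 CPM (log2 ratio 0.87, 0.34 to 1.45), and Plat, a plasminogen activator, at 147 and 234 CPM (log2 ratio 0.67, 0.37 to 0.98), with 1 DTX cell giving 40.6% of its UMIs. Thbs1 was lower, at 636 and 505 CPM (log2 ratio -0.33, -0.50 to -0.16).

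The PDGF ligands Pdgfa and Pdgfb, by which endothelial cells recruit mural cells and fibroblasts, were higher, within 2-fold. Pdgfa was at 592 CPM in the PBS library and 999 CPM in the DTX library (log2 ratio 0.75, 0.61 to 0.90) and had a UMI in 53 of 74 and 58 of 64 cells. Pdgfb, which pericytes need to attach, was at 347 and 581 CPM (log2 ratio 0.74, 0.55 to 0.94). By cluster, Pdgfa was at 458 and 1307 CPM in the venous-like and at 2149 and 1282 CPM in the arterial-like cells, so the direction was not the same in both. Of the 6 genes of the PDGF list 3 were tested and all 3 were higher, none past 2-fold, with a median of 0.74, or 0.45 as a mean over cells. Flt1, the decoy receptor of VEGF, was at 547 and 857 CPM (log2 ratio 0.65, 0.49 to 0.80), and the VEGF list had 4 of 5 higher with a median of 0.05. The lymphatic list had 6 of 8 higher and a median of 0.06, and the angiopoietin and Tie list had a median of 0.13 over 5 genes. The lymphatic median turned to -0.45 after thinning and to -0.11 with cells of up to 10% mitochondrial UMIs, and the summed lymphatic list was at -0.10.

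Apln, Adm, Dll4 and Esm1, genes of sprouting tip cells, were lower in the DTX cells, while the tip list as a whole was divided. Of this list, 4 of 11 genes tested were higher and 7 lower in the DTX library, with a median of -0.87, where 51.6% of all genes were lower. The median turned to 0.08 over the tip genes with at least 200 UMIs and was -0.29 as a mean over cells. The 4 named genes were past 2-fold lower and Unc5b past 2-fold higher. Apln, the peptide made by tip cells, had 206 UMIs in 14 of 74 PBS cells and 6 in 3 of 64 DTX cells (log2 ratio -4.76, -6.43 to -3.82), but 1 PBS cell held 51.5% of the PBS UMIs and the ratio without the highest cell of each library was -4.96. It had a UMI in 18.9% of PBS and 4.69% of DTX cells, and in 9.72% and 0% when thinned to 2000 UMIs, where the exact upper limit of 5.78% for the DTX cells covers cells with a UMI at that depth and not cells that make the RNA. Cluster 4 held 193 of the 206 PBS UMIs of Apln and 1 of the 6 DTX UMIs, in 9 of 19 and 1 of 7 cells (464 and 6.16 CPM), and the other 5 DTX UMIs lay in the capillary-like cells. Esm1, a proteoglycan of tip cells, had 128 UMIs in 15 of 74 PBS cells and 44 in 7 of 64 DTX cells (log2 ratio -1.39, -1.94 to -0.90). By cluster Esm1 went both ways, with 84 PBS and 0 DTX UMIs in cluster 4 and 36 and 4 in the capillary-like cells. It had 0 and 30 UMIs in the venous-like and 3 and 10 in the arterial-like cells. Adm, the vasodilator adrenomedullin, had 54 UMIs in 15 of 74 PBS cells and 6 in 4 of 64 DTX cells (log2 ratio -2.85, -4.55 to -1.82). Angpt2, which loosens vessels, was at 130.5 and 146 CPM (0.16) and Pgf, a VEGF family ligand, at 231 and 245 CPM (0.08), and Unc5b, a guidance receptor, was higher at 20.0 and 42.8 CPM (log2 ratio 1.06, 0.30 to 1.93). By cluster Angpt2 was higher in the DTX library in 1 and lower in 5. It was at 62.1 and 276 CPM in the venous-like cells (8 and 91 UMIs) and at 178 and 67.7 CPM in cluster 4.

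More tested Notch genes were lower than higher, Jag1 and Rbpj being the 2 that were higher. Of the Notch list, 2 of 8 genes tested were higher and 6 lower in the DTX library, 4 past 2-fold, with a median of -0.82. The size of this median depended on the cells and genes used, at -0.18 with cells of up to 10% mitochondrial UMIs, -0.37 with stricter gates, and -0.42 and -0.42 with at least 200 UMIs and at least 1 UMI per gene. The mitochondrial share differed between the libraries, as given above, and its part in these ratios was not tested. Dll4, the ligand of tip and arterial cells, had 49 UMIs in 20 of 74 PBS cells and 9 in 7 of 64 DTX cells (log2 ratio -2.20, -3.52 to -1.27). Of its UMIs, 30 in 10 of 19 PBS and 0 in 7 DTX cells lay in cluster 4, and 11 and 4 in the arterial-like cells. The target Hes1 was at 172 CPM in the PBS library and 71.0 CPM in the DTX library (log2 ratio -1.27, -1.70 to -0.87), with a UMI in 40 of 74 and 28 of 64 cells. Nrarp, a feedback inhibitor that Notch induces, had 59 UMIs in 27 of 74 PBS cells and 11 in 6 of 64 DTX cells (log2 ratio -2.20, -3.37 to -1.35), and Mfng, an enzyme that modifies Notch, was at 61.9 and 26.1 CPM (log2 ratio -1.22, -1.97 to -0.56). Jag1, another ligand, was higher at 88.6 and 159.7 CPM (log2 ratio 0.84, 0.47 to 1.24).

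The BMP and TGF-beta list was divided, with 5 of 11 tested genes higher and 6 lower and a median of -0.05. Its 3 inhibitor-of-differentiation genes, direct targets of BMP signalling, were the lowest. Id1 was at 152 CPM in the PBS library and 40.7 CPM in the DTX library (log2 ratio -1.88, -2.45 to -1.39), with a UMI in 39 of 74 and 17 of 64 cells, and in the capillary-like cells it had 52 UMIs in 9 of 12 PBS and 11 in 5 of 11 DTX cells. Id2 was at 41.0 and 14.6 CPM (log2 ratio -1.43, -2.47 to -0.59) and Id3 at 325 and 181 CPM (log2 ratio -0.84, -1.12 to -0.58). The ligands Tgfb1 (127 and 242 CPM, log2 ratio 0.93, 0.62 to 1.25) and Bmp4 (34.3 and 63.7 CPM, log2 ratio 0.87, 0.28 to 1.53) were higher.

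Genes of the cell cycle were lower in the sum over cells. None of the 16 tested genes of the list was higher and all 16 were lower in the DTX cells, 9 past 2-fold, with a median of -1.08, or -0.45 over the genes with at least 200 UMIs. Mki67, present in dividing cells, had 68 UMIs in 16 of 74 PBS cells and 12 in 4 of 64 DTX cells (log2 ratio -2.28, -3.39 to -1.47), Birc5 had 105 UMIs in 15 of 74 PBS cells and 24 in 6 of 64 DTX cells (log2 ratio -1.96, -2.70 to -1.35), and Top2a had 67 UMIs in 11 of 74 PBS cells and 27 in 5 of 64 DTX cells (log2 ratio -1.15, -1.88 to -0.51). The UMIs lay in few cells, with 57 of the 68 PBS and 9 of the 12 DTX Mki67 UMIs in cluster 4. There Mki67 was at 137 CPM (104 to 177) in the PBS and 55.4 CPM (25.3 to 105) in the DTX library, the latter from 2 cells. Top2a was at 156 CPM (121 to 199) and 142 CPM (89.8 to 212), with overlapping counting intervals for both genes. Cluster 4 also carried RNA of other cell types, with all 12 keratinocyte genes, 4 of 12 macrophage and 4 of 12 other leukocyte genes raised, and the keratinocyte list at 3523 CPM against 186 in the other endothelial cells. These sums rest in large part on single cells. Over all PBS endothelial cells 1 cell gave 69.5% of the keratinocyte and 1 cell 64.1% of the other leukocyte list. Lgals7, which led the cluster, had a UMI in 17 of its 26 cells. Without the 8 PBS and 2 DTX cells with over 1% of UMIs from such lists the cell cycle median was -1.19. The summed list was at 1893 and 1178 CPM, and 1 cell gave 18.0% and 19.5% of it.

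**Figure D4:**
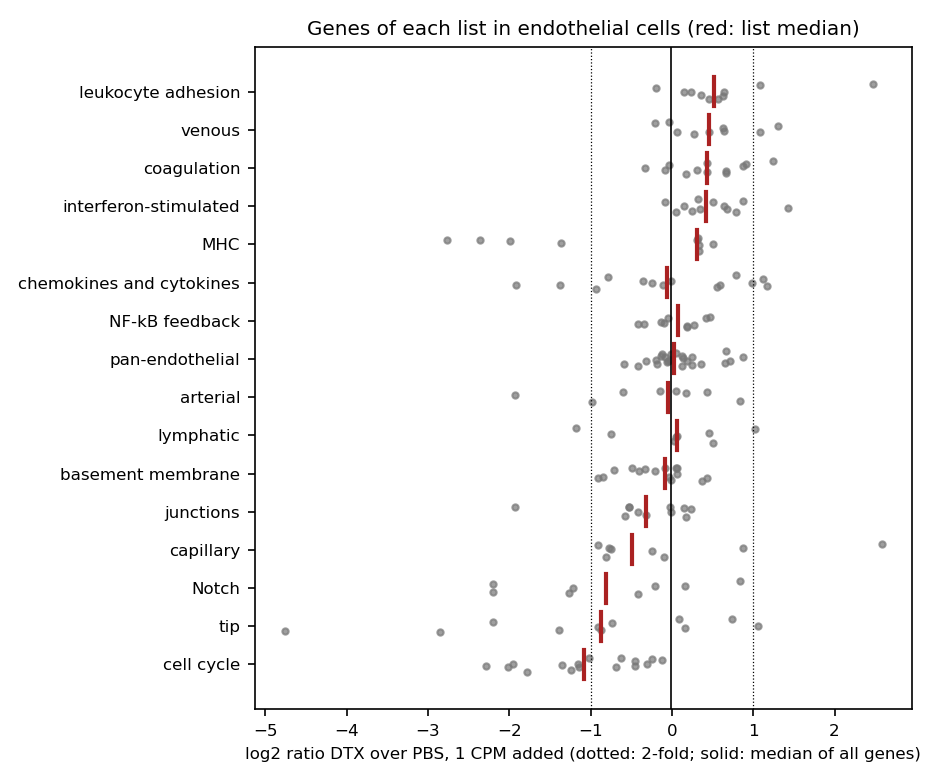
Log2 ratio of DTX over PBS, 1 CPM added, of every tested gene of 16 lists (grey points), with the median of each list (red), the median of all 5277 genes (solid line) and the 2-fold limits (dotted). All points of the cell cycle list lie left of 0, and 9 of 10 points of leukocyte adhesion and 11 of 12 of the interferon-stimulated list lie right of it.

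More genes of the capillary list and of the caveolae and lipid uptake list were lower than higher. Of the capillary list, 2 of 8 genes tested were higher and 6 lower in the DTX library, none past 2-fold lower and Car4 past 2-fold higher, with a median of -0.49. Of the caveolae and lipid uptake list 9 of 12 were lower, 2 past 2-fold, with a median of -0.25, where 51.6% of all genes were lower. The capillary median was -0.12 with cells of up to 10% mitochondrial UMIs, -0.24 over the genes with at least 200 UMIs, -0.26 without the doublets (barcodes of more than 1 cell) called by Scrublet and -0.30 with stricter gates. The caveolae and lipid uptake median was -0.13 without Scrublet doublets and -0.59 after thinning. Gpihbp1, which holds lipoprotein lipase on capillaries, was at 454 and 259 CPM (log2 ratio -0.81, -1.04 to -0.59), and the fatty acid transporter Cd36 at 231 and 138 CPM (log2 ratio -0.74, -1.07 to -0.44). Fabp5 was at 569.5 and 248 CPM (log2 ratio -1.19, -1.42 to -0.98) and Cavin2, a caveola coat gene, at 306 and 146 CPM (log2 ratio -1.06, -1.36 to -0.77). Rgcc and Car4 were the 2 capillary genes on the other side, Rgcc at 278 and 510.3 CPM (log2 ratio 0.87, 0.66 to 1.09). Within the capillary-like cells Gpihbp1 was at 1366 and 978 CPM and Fabp4, a fatty acid carrier, at 13912 and 5539.5 CPM. In the arterial-like cells Fabp4 was higher in the DTX library, at 655 and 3375 CPM, and in cluster 4 at 2075 and 2499.6 CPM. Over all endothelial cells it was at 4584 and 3882 CPM (log2 ratio -0.24, -0.30 to -0.18). Fabp5 was also lower in macrophages (-0.62) and mural cells (-0.88), and higher in fibroblasts (0.15) and keratinocytes (0.78).

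Lists of vessel structure had medians on both sides of 0. Of the junction list 8 of 11 genes were lower with a median of -0.32 (-0.03 over genes with at least 200 UMIs, -0.01 after thinning and -0.16 with stricter gates), with Esam at 594 and 446 CPM (log2 ratio -0.41, -0.60 to -0.24) and Cldn5 at 477 and 382 CPM (log2 ratio -0.32, -0.52 to -0.12). The 1 junction gene past 2-fold was Gja4, also of the arterial list, at 46.7 and 11.5 CPM, with 59.2% of its PBS UMIs in 1 cell. The arterial list had a median of -0.05 over 8 genes. This median turned to 0.24 over the genes with at least 200 UMIs, and was -0.32 as a mean over cells and -0.29 without the highest cell of each gene. Of the basement membrane list 10 of 15 were lower, none past 2-fold, with a median of -0.08. Col4a1, the main collagen of that membrane, was at 2208 and 2299 CPM (0.06). The vascular tone list had a median of -0.01 over 9 genes, the shear response list 0.05 over 7, and the mesenchymal transition list 0.64 over 7, of which Acta2 and Tagln passed 2-fold. The last of these turned to -0.07 without Scrublet doublets and was 0.24 without the highest cell of each gene.

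Most tested interferon-stimulated genes were higher, and genes of antigen presentation divided by class, with those of class I higher and those of class II lower. Of the interferon-stimulated list, 11 of 12 genes tested were higher and 1 lower in the DTX library, with a median of 0.42 and only Oasl2 past 2-fold (log2 ratio 1.43, 0.67 to 2.36), where 48.4% of all genes were higher. The median was 0.26 as a mean over cells and 0.64 with the stricter member rule of at least 10 UMIs and 3 rule genes. Ifitm3, which blocks virus entry, was at 2936 and 4153 CPM (log2 ratio 0.50, 0.43 to 0.57), Ifitm2 at 1017 and 1626 CPM (log2 ratio 0.68, 0.56 to 0.79) and Isg15 at 148 and 257 CPM (log2 ratio 0.79, 0.50 to 1.10). Of the 9 tested genes of antigen presentation, the 5 genes of the class I pathway (H2-K1, H2-D1, B2m, Tap1 and Psmb8) were higher, none past 2-fold, H2-K1 at 1446 and 2054 CPM (log2 ratio 0.51, 0.41 to 0.60). The 4 class II genes were lower, all past 2-fold, with Cd74, the invariant chain, at 272 and 52.2 CPM (log2 ratio -2.36, -2.85 to -1.95), and 1 PBS cell held 45.5% of its UMIs. Without the cells with RNA of other types, an alternative chosen after the data had been seen, the ratio of Cd74 was -1.60.

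Stress genes differed in both directions. Of the immediate early and heat shock list 6 of 14 genes were higher and 8 lower. Hspa1b, a heat shock chaperone, was at 298 and 827 CPM (log2 ratio 1.47, 1.28 to 1.66) and Egr1, an immediate early factor, at 406 and 177 CPM (log2 ratio -1.19, -1.46 to -0.93). The glycolysis and hypoxia list had 10 of 15 lower, none past 2-fold, with a median of -0.11.

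RNA of other cell types was found in many of the endothelial cells, and for some lists 1 cell gave most of the sum. At least 1 UMI of the keratinocyte list was in 72 of 74 PBS and 45 of 64 DTX cells, of the fibroblast list in 65 of 74 PBS and 32 of 64 DTX cells, of the macrophage list in 59 of 74 PBS and 51 of 64 DTX cells and of the mural list in 23 of 74 PBS and 20 of 64 DTX cells. The keratinocyte list summed to 1935 and 285 CPM in the PBS and DTX endothelial cells, with Lgals7 its most abundant gene (605 and 118 UMIs) and 1 PBS cell giving 69.5% of it. All 9 of its tested genes were lower, with a median of -3.41 that turned to 0.06 with stricter gates, and Krt1 and Krt15 were at 0 in the DTX cells. The fibroblast list summed to 2748 and 822 CPM, with Dcn (1471 UMIs) the most abundant in the PBS and Col1a2 (421 UMIs) in the DTX cells, and 1 cell gave 34.3% and 78.6%. The macrophage list summed to 501 and 276 CPM (Apoe leading with 279 and 172 UMIs), the mural list to 97.1 and 236 CPM (Acta2 leading, with Higd1b and Myh11 among the 4 of 11 genes at 0 in each library), the other leukocyte list to 233 and 88.7 CPM, the red cell and platelet list to 28.6 and 15.7 CPM, and the Schwann cell list to 1.9 and 0 CPM. The other leukocyte list, lower in sum in the DTX library, had a UMI in 17 of 74 PBS and 32 of 64 DTX cells. In it 1 cell gave 64.1% of the PBS and 48.2% of the DTX sum. The keratinocyte list was lower in the DTX library in other cell classes too, at -1.54 in macrophages, -1.83 in fibroblasts and -5.70 in mural cells. The fibroblast list was at -2.22 in macrophages and -0.29 in keratinocytes, but at 0.14 in mural cells. When the 8 PBS and 2 DTX cells with over 1% of UMIs from these lists were left out, chosen after the data had been seen, 92 genes were at least 2-fold higher and 102 lower, and the medians were 0.51 for leukocyte adhesion, 0.71 for the venous, -0.88 for the tip, -0.79 for the Notch and -1.19 for the cell cycle list. In the same cells the medians were 0.37 for the chemokine and cytokine list, which turned, 0.35 for the coagulation, 0.58 for the interferon-stimulated and -0.56 for the capillary list.

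Side by side with other cells of the same libraries, some differences stood in endothelial cells and others were shared, although no difference between cell classes was tested. The summed adhesion list had a ratio of 0.60 in endothelial cells, -0.04 in macrophages, -0.35 in fibroblasts, -0.13 in keratinocytes and -0.09 in mural cells. The summed cell cycle list was at -0.68 in endothelial cells, -0.33 in macrophages, 0.62 in fibroblasts, 0.45 in keratinocytes and -0.03 in mural cells. The interferon-stimulated list was higher in every class, at 0.49 in endothelial cells and 0.76 in macrophages, 0.31 in fibroblasts, 0.40 in keratinocytes and 0.73 in mural cells. The summed coagulation list was at 0.53 in endothelial cells, 0.95 in macrophages, -0.20 in fibroblasts, -0.26 in keratinocytes and 0.81 in mural cells. For the chemokine and cytokine list the sums were at 0.34, 0.76, 0.09, -0.18 and 0.72 in the same order. Both were thus higher by more in macrophages and mural cells. For single genes, Csf3 was at 18.9 and 293 CPM in PBS and DTX mural cells (ratio 3.88). Id1, lower in endothelial cells, was also lower in mural cells (-2.04) and higher in fibroblasts (0.54), keratinocytes (0.97) and macrophages (0.68).

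**Figure D5:**
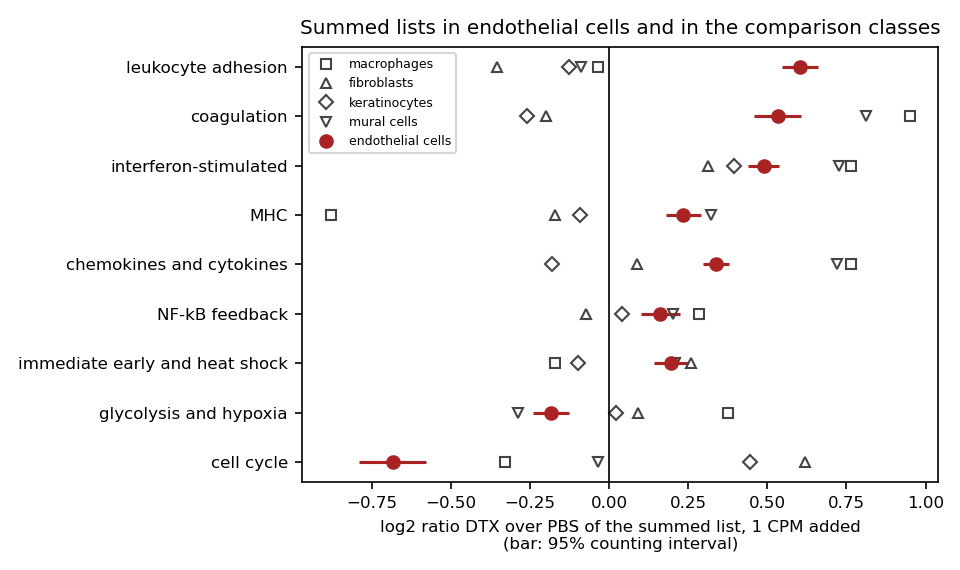
Log2 ratio of DTX over PBS of 9 summed lists in endothelial cells (filled circles, with 95% counting intervals) and in macrophages, fibroblasts, keratinocytes and mural cells (open symbols). The endothelial circle is right of all 4 other classes for leukocyte adhesion and left of them for the cell cycle list.

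Mrc1, whose promoter drives the toxin receptor, was rare in endothelial cells. It had 6 UMIs in 4 of 74 PBS and 3 UMIs in 3 of 64 DTX cells, 5.41% and 4.69% of cells, against 72.0% and 69.3% of macrophages and 4.08% and 2.88% of mural cells. A share of this size is close to that of mural cells. In the 12 lymphatic-like cells Mrc1 had 1 UMI in each library, while Lyve1, another receptor of lymphatic cells, was at 1511 and 1567 CPM. Whether lymphatic cells carrying the receptor were lost cannot be read from 6 cells in each library. Hbegf, an EGF family growth factor among the leading genes of the arterial-like cluster, was at 521 CPM in the PBS library and 270.3 CPM in the DTX library (log2 ratio -0.94, -1.17 to -0.73).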

How the data were processed

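The deposited values are UMI counts per gene and cell from 10x Genomics 3' libraries, which the authors made with Cell Ranger on mm10. The file header gives version 6.1.1. Barcodes under 500 detected genes or above 6% mitochondrial UMIs were dropped. The members, the 33 gene lists and the comparisons were chosen with earlier results of these data known. UMIs were summed over the endothelial cells of each library and scaled to 1000000 (CPM), and 1 CPM was added before the log2 ratio. Ratios have exact binomial, levels exact Poisson and shares Clopper-Pearson 95% intervals. Clusters were made with scanpy 1.11.5 (1500 variable genes without the 11 rule and gate genes, 15 components, 15 neighbours, Leiden resolution 0.6, seed 1). A cluster's leading genes needed 30 UMIs, 3 cells and 25% of cells, thresholds set after the data had been seen. Named genes were those of the lists, the 10 largest ratios each way by the near bound of the interval, the 15 most endothelial genes and cluster leaders, and Mid1, Xist and Ddx3y were added after their values were seen. Doublets were left in, and removed with Scrublet as an alternative, which took out 3 PBS and 13 DTX endothelial cells. In the DTX library Scrublet's own threshold called 0 cells, so the 571 highest scores were removed there. Leaving out cells with RNA of other types and leaving out each gene's highest cell were also added after the data had been seen. The code was tested on simulated data. Promoter sequences are from RefSeq, GRCm38.p6. A gene of the fixed lists is not reported here by name, and is included in the counts and medians of its lists.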

Additional observations from a re-analysis of the deposited data

Results flagged for a closer look

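In 20 cases a gene of the endothelial cells was at least 2-fold higher in one library while the same gene was at least 2-fold higher in the other library in another cell class. Each difference rests on 1 library for each treatment and was not tested. All values are log2 ratios of DTX over PBS.

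Class II antigen presentation stood opposite in mural cells. Cd74 was at -2.36 in endothelial and 1.04 in mural cells, H2-Aa at -2.77 and 1.13, H2-Ab1 at -1.36 and 1.73, and H2-Eb1 at -1.99 and 1.38, and a single endothelial cell held 36.8% to 45.5% of the UMIs of each gene in the library where it was higher. The summed list of antigen presentation, which also holds class I genes, was at 0.24 in endothelial and 0.32 in mural cells. The same sum was at -0.88 in macrophages, -0.17 in fibroblasts and -0.09 in keratinocytes. Against mural cells, Tnfaip6 was at -4.56 and 1.15, with 33.2% in 1 cell. Il1b was at -1.37 and 3.13, Cd52 at -3.37 and 2.45, and Il33 at -1.92 and 1.25, with 76.6%, 74.5% and 75% of their UMIs in 1 endothelial cell.

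Genes of division stood opposite as well. Tpx2 was at -2.01 in endothelial cells and 1.11 in fibroblasts, Ccnb2 at -1.02 and 1.89, and Birc5 at -1.96 and 1.51, with 34.9%, 17.1% and 16.2% of the UMIs in 1 endothelial cell. Mki67 was at -2.28 in endothelial cells and 1.36 in keratinocytes, with 23.5% in 1 cell. Esm1 was at -1.39 in endothelial cells and 1.71 in fibroblasts, with 39.1% in 1 cell.

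Against macrophages, Mmp13 was at 3.89 in endothelial cells and -1.07, with 34.2% in 1 endothelial cell. Igfbp5 was at 1.04 in endothelial cells, -1.76 in macrophages and -2.08 in keratinocytes, with 61.2% in 1 cell. Postn was at 1.66 and -1.59 in macrophages, Cxcl9 at 1.17 and -2.37, and Col6a1 at 1.10 and -1.39, with 79.6%, 54.5% and 87.5% in 1 cell. Krt6a was at -3.13 in endothelial cells and 1.37 in keratinocytes, with 81.6% in 1 cell.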

How the results depend on the processing

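Across the alternatives, 19 of 28 counts of genes stayed within 1.5 times their value, and 62 of 80 shares and 2730 of 3220 ratios of single genes stayed within their counting interval. Of the ratios, 18 were of genes past 2-fold that took the other sign, and sign changes of smaller ratios were not counted. Of 368 list medians 55 took the other sign and 100 more moved by over 1.5 times, many of them medians near 0. Of the 178 whose median was at least 0.3 in size, 44 moved by over 1.5 times and 5 turned, the tip list (0.08 with at least 200 UMIs), the MHC list (-0.39 with at most 2000 genes per cell), the mesenchymal transition list (-0.07 without Scrublet doublets), the macrophage list (0.67 without the highest cell of each gene) and the keratinocyte list (0.0574 under stricter gates). Where values moved, the cause was not tested. The numbers of genes at least 2-fold higher and lower in the DTX cells were 22 and 26 with at least 200 UMIs, 1475 and 1526 with at least 1 UMI, and 15 and 19 after thinning to 2000 UMIs, with 49 higher when 10 CPM were added. The study's limit of 2000 genes per cell left 8 PBS and 5 DTX endothelial cells, 0.317% and 0.189% of kept cells, with 20 genes higher and 15 lower, medians of -0.17 for pan-endothelial and 0.89 for interferon-stimulated genes, and 50% and 40% of cells in the capillary, 37.5% and 60% in the venous, 0% and 0% in the lymphatic and 12.5% and 0% in the tip class, and 0% of DTX cells in the arterial class. With at most 10% mitochondrial UMIs the ratio of endothelial to mural cells was 0.913 in the PBS library and Saa3 was at 1.89. With at least 4 list genes the arterial class held 45.9% and 40.6%, the tip class 45.9% and 39.1%, and in the PBS library the capillary class 56.8% and the venous class 60.8%. Under the stricter gates against other cell types Krt17 was at 1.06, Lgals7 at 0.36, Sfn 0.0574 and Cxcl9 -0.21. The PDGF median was 0.75 with scaling by the median of gene ratios, 0.45 as a mean over cells and 0.83 without the highest cell of each gene. Without that cell the median of the other leukocyte list was -0.0839, Acp5 was at -0.22, C1qa 1.67, C1qb 0.91, Chga -0.25, Col6a1 -1.07, Il1b 0.44 and Postn -0.20. Ccl21a was at 0.41 as a mean over cells and 0.39 after thinning, where the basement membrane median was 0.0846. Without the lymphatic class the MHC median was 0.34 and Lbp was at -0.0674, without Scrublet doublets Lbp was at -0.20 and Mmrn1 at -0.0396, and without cells with RNA of other types Il33 was at 0.38. No paired analysis was possible because each treatment has 1 library, and for the same reason no replicate could be left out.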
